A study of Mus musculus with 1376 samples.

Results

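The 10 genes described here belong to nitric oxide and natriuretic peptide signalling, which works through cyclic GMP. They are the soluble guanylate cyclase subunits Gucy1a1, Gucy1a2 and Gucy1b1, the natriuretic peptide receptors Npr1, Npr2 and Npr3, the protease Corin, the phosphodiesterase Pde5a, and the kinases Prkg1 and Prkg2. They were taken by name as rows of the count table, and all 10 of 10 were found among its 46517 genes. The cells came from mouse lung, and each deposited sample is 1 cell. The mice carried the ACTA2GFP:CSPG4dsRED reporters, whose names point to smooth muscle actin and to the proteoglycan NG2. No treatment or further allele is labelled. The labels give an age of 8 to 30 weeks. Single cells were put by flow sorting into the wells of 384-well plates and read by Smart-Seq2, which sequences whole transcripts without molecular identifiers. Which reporter signals were sorted on was not stated in the labels.

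There were 3 mice, and male mouse 1 gave 47.5%, male mouse 2 25.6% and female mouse 1 26.96% of the 1376 cells. Each mouse had its own plate or plates, so that effects of plate, sex and animal cannot be told apart. The labels say lung as tissue while the extraction text names heart, and the series text speaks of male mice aged 8 to 21 weeks. A cell held 50835 to 1074103 counts, with a median of 230688. Genes were split at random into 2 sets, except that the 10 genes and the other listed pathway genes were all put in the first. Cells were clustered on each set and named from marker genes, and each gene was read in classes built from the other set. A class is therefore called "-like". Of the cells, 1098 were named and 20.2% stayed unnamed. Values in groups of 3 follow the order male 1, male 2, female. The 6 classes with at least 10 cells in every mouse were vascular smooth muscle cell (SMC)-like (38.6%, 44.6% and 13.2% of the cells of each mouse), airway SMC-like (40, 13 and 28 cells), pericyte-like (22, 11 and 79), alveolar myofibroblast-like (28, 40 and 36), alveolar fibroblast-like (58, 64 and 42) and adventitial fibroblast-like cells (17, 17 and 35). Endothelial-like cells came almost wholly from the female mouse (64 of 67) and leukocyte-like cells from male mouse 1 (41 of 43). Both serve here as single-mouse reference values. The summed markers of the pericyte, alveolar myofibroblast, alveolar fibroblast and adventitial fibroblast lists were higher in their own class, in every mouse, than in any other of the 6 classes. The same lists had named the classes, so this is no independent check of the names. The vascular and airway lists share Myh11, Cnn1, Acta2 and Tagln, and their sums overlapped between both SMC-like classes.

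As background, nitric oxide made by endothelium diffuses into neighbouring smooth muscle and binds the haem of soluble guanylate cyclase, a dimer of an alpha and a beta subunit that turns GTP into cyclic GMP. Natriuretic peptides reach the same second messenger through membrane receptors that carry their own cyclase domain. Cyclic GMP activates protein kinase G, which lowers calcium and relaxes the muscle, and phosphodiesterases end the signal. The pathway is a drug target in pulmonary hypertension, where inhibitors of PDE5 and stimulators of soluble guanylate cyclase relax lung vessels.

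Gucy1a1 (ENSMUSG00000033910, chromosome 3, 82092427 to 82145789, minus strand) and Gucy1b1 (ENSMUSG00000028005, chromosome 3, 82032006 to 82074689, minus strand) are neighbours in GRCm38, with 17737 bases between them. Pde5a (ENSMUSG00000053965) lies further along the same chromosome, at 122728947 to 122859374 on the plus strand, and Corin (ENSMUSG00000005220) on chromosome 5, at 72300025 to 72504473 on the minus strand. The promoters of these 4 genes are shown because Gucy1a1, Gucy1b1 and Pde5a were high in the same class and Corin was at its highest in another. Each runs 5′ to 3′ from 250 bases before to 50 bases after a RefSeq start (GRCm38.p6), and Gucy1a1 has 2 annotated starts. Capitals mark matches on either strand to GGGCGG (a Sp1-type GC box), TGGGAA (a core of RBPJ sites) or ACGTG (a core of HIF and E-box sites).
Gucy1a1, start 1 (chr3:82145601-82145900, minus strand): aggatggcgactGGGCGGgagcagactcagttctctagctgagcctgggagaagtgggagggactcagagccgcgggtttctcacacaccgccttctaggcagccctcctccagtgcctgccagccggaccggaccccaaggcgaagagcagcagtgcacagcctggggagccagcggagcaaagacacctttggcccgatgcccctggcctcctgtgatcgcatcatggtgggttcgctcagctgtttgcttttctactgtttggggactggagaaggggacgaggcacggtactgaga
Gucy1a1, start 2 (chr3:82145024-82145323, minus strand): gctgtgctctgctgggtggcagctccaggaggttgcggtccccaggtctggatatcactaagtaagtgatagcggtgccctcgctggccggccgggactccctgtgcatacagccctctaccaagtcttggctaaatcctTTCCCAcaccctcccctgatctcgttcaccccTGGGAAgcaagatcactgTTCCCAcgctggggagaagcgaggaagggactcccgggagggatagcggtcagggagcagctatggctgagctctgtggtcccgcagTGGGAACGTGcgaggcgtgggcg
Gucy1b1 (chr3:82074662-82074961, minus strand): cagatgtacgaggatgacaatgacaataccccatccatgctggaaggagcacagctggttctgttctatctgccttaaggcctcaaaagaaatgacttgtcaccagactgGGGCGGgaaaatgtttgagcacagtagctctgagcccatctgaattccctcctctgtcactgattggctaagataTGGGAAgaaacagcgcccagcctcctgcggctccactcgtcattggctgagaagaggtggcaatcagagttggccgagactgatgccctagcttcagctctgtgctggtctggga
Pde5a (chr3:122728908-122729207, plus strand): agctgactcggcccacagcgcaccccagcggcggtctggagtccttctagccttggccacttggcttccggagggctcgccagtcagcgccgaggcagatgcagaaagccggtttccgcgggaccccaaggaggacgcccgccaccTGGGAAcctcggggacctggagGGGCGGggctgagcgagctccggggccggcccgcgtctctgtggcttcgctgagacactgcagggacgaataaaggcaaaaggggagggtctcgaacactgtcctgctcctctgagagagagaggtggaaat
Corin (chr5:72504491-72504790, minus strand): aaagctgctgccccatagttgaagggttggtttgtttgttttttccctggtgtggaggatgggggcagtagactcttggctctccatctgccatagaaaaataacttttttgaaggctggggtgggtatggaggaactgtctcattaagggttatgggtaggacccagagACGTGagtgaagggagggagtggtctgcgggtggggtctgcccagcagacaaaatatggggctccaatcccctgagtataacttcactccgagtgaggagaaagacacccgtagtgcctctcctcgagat

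The second Gucy1a1 start held 4 matches to TGGGAA and 1 to ACGTG, and the first held 1 GGGCGG. The Gucy1b1 and Pde5a windows each held 1 GGGCGG and 1 TGGGAA, and the Corin window held 1 ACGTG. Over 32851 mouse promoters of the same length, GGGCGG occurred in 35.7%, TGGGAA in 25.6% and ACGTG in 19.6%, so these are common words. TATAAA, found in 13.6% of promoters, and the CArG box, the serum response factor motif found in 1.63%, were in none of the 11 windows that matched 9 of the 10 genes. Motifs may overlap one another, and a match describes the letters only. Prkg2 had no entry.

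Levels below are CPM, the summed counts of one class in one mouse relative to the total of that sum, scaled between sums by TMM. Differences were tested with edgeR's quasi-likelihood test on the 18 sums with mouse as a block, and p-values were adjusted over 16177 genes by the Benjamini-Hochberg method. A gene was called at an adjusted p under 0.05, and all 10 genes passed the filter on low counts and were tested. The mice are the replicates, and cells of one mouse are not.

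Soluble guanylate cyclase transcripts were highest in pericyte-like cells. Gucy1a1, the usual alpha subunit, stood at 2924, 5465 and 3348 CPM there, and at 652.4, 941.6 and 845.6 CPM in vascular SMC-like cells. Every pericyte-like value lay above every vascular value. Against vascular SMC-like cells the level was 4.81-fold higher (log2 2.26 ± 0.38 SE, n = 3 mice, higher in 3 of 3, adjusted p 0.00489). Alveolar myofibroblast-like cells held 292.3, 265.5 and 247.4 CPM, airway SMC-like cells 244.6, 142.7 and 212.2, and alveolar fibroblast-like cells 102.8, 194.97 and 130.7. In the order of means only the last of these neighbours, airway SMC-like and alveolar fibroblast-like cells, overlapped. Adventitial fibroblast-like cells were far lower, at 6.93, 4.40 and 14.4 CPM, and endothelial-like cells held 30.4 CPM in the female mouse.

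The airway SMC-like level of Gucy1a1 was 3.98-fold below the vascular one (log2 -1.99 ± 0.38, adjusted p 0.0137), the alveolar myofibroblast-like level 2.98-fold below (log2 -1.58 ± 0.37, adjusted p 0.0305) and the alveolar fibroblast-like level 5.71-fold below (log2 -2.51 ± 0.38, adjusted p 0.000977). All 3 differences had the same direction in 3 of 3 mice. Pericyte-like cells exceeded airway SMC-like cells 19.1-fold (log2 4.26 ± 0.42, adjusted p 4.56e-05) and alveolar myofibroblast-like cells 14.3-fold (log2 3.84 ± 0.41, adjusted p 0.000107). Those last calls held without each mouse in turn. Against vascular cells, the airway call was lost without male mouse 1 (adjusted p 0.144) or the female mouse (0.150), the pericyte-like call without male mouse 1 (0.127), the alveolar fibroblast-like call without male mouse 1 (0.0571), and the alveolar myofibroblast-like call without any one mouse (0.245, 0.0556 and 0.207) or with a stricter cell filter (0.0521). Mir7010, annotated over an exon of Gucy1a1 on the same strand, held 2733 counts against 255136 for Gucy1a1, and reads of the pair cannot be told apart.

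**Figure D1:**
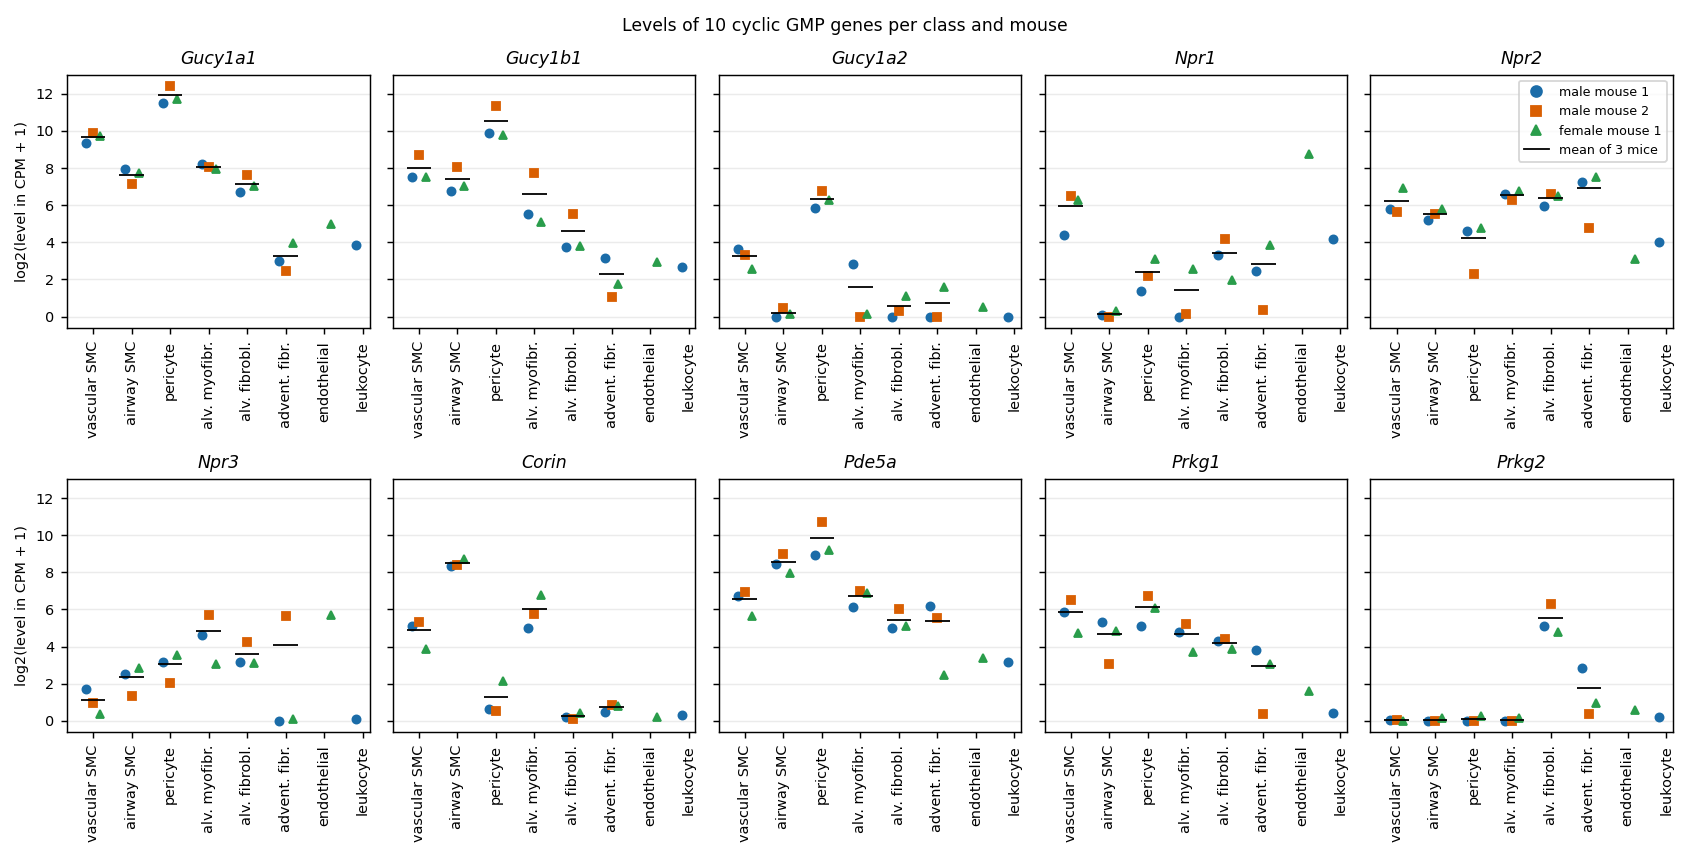
Levels of the 10 genes in each cell class, as log2(CPM + 1) with TMM scaling. Each point is 1 class in 1 mouse, and black lines mark means. The pericyte-like points of Gucy1a1, at 2924 to 5465 CPM, lie above those of all other classes, whereas Corin peaks in airway SMC-like cells at 320 to 428.3 CPM.

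Gucy1b1, the beta subunit that carries the haem, followed a similar order. It stood at 954, 2609 and 882 CPM in pericyte-like cells and at 180.1, 420.6 and 179.7 CPM in vascular SMC-like cells, again without overlap. The pericyte-like level was 5.44-fold higher (log2 2.44 ± 0.60, adjusted p 0.0393, higher in 3 of 3 mice). That call was lost without any one mouse (adjusted p 0.212, 0.0703 and 0.204), without the mouse block (0.141) and with classes built on all variable genes (0.132). Airway SMC-like cells held 106.7, 263.9 and 130.7 CPM, overlapping the vascular range, and the difference was not called. In alveolar myofibroblast-like cells the level was 44.9, 208.5 and 32.7 CPM, so male mouse 2 was high in this class, as it was in the others above.

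In alveolar fibroblast-like cells Gucy1b1 was lower still, at 12.3, 45.9 and 13.2 CPM, which is 12-fold below vascular SMC-like cells (log2 -3.59 ± 0.63, adjusted p 0.00288). This call was lost without the female mouse (0.108). Pericyte-like cells exceeded airway SMC-like cells 8.30-fold (log2 3.05 ± 0.61, adjusted p 0.00961; 0.0802 without male mouse 1 and 0.0995 without the female mouse). They exceeded alveolar myofibroblast-like cells 18-fold (log2 4.17 ± 0.65, adjusted p 0.00168; 0.0561 without the female mouse). Adventitial fibroblast-like cells held 7.93, 1.10 and 2.44 CPM, and endothelial-like cells 6.69.

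Per kilobase of exon, which allows genes to be compared, the Gucy1b1 level was 0.55 ± 0.21 of the Gucy1a1 level in vascular SMC-like cells and 0.63 ± 0.20 in pericyte-like cells (SD, n = 3). It was 0.27 ± 0.13 in alveolar fibroblast-like cells. In airway SMC-like cells the ratio was 0.774, 3.28 and 1.09, which differed widely between mice. Both subunits had counts in 100%, 100% and 96.2% of pericyte-like cells and in 85.7%, 94.3% and 93.9% of vascular SMC-like cells. In alveolar myofibroblast-like cells both were found in 42.9%, 32.5% and 69.4%. These shares lie close to the products of the single shares, 41.1%, 35.8% and 70.2% in the myofibroblast-like cells. A count alone marks little, since 81.2% of endothelial-like and 58.5% of leukocyte-like cells also had a Gucy1a1 count. With each cell thinned to 50000 counts those shares were 50% and 26.8%, against 92.9%, 96.2% and 97.96% in vascular SMC-like cells.

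Gucy1a2, the other alpha subunit, was a minor transcript. Its level in pericyte-like cells was 56.2, 109.4 and 75.6 CPM, against 11.5, 8.99 and 4.89 in vascular SMC-like cells. These ranges did not overlap, yet the difference was not called (log2 3.17 ± 1.94, adjusted p 0.475). A single cell held 62.4%, 36.5% and 31.9% of the pericyte-like counts in the 3 mice. Airway SMC-like cells had 2 counts among 23846610, against 1921 of 25815420 in pericyte-like cells, an 887-fold ratio with a 95% interval of 245.3 to 7332 that covers counting error only. The fitted difference between these classes was log2 9.56 ± 2.71, with an adjusted p of 0.0579. Per kilobase, Gucy1a2 in pericyte-like cells (12.1 ± 4.05 CPM) was far below Gucy1a1 (561.5 ± 195.3 CPM).

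**Figure D2:**
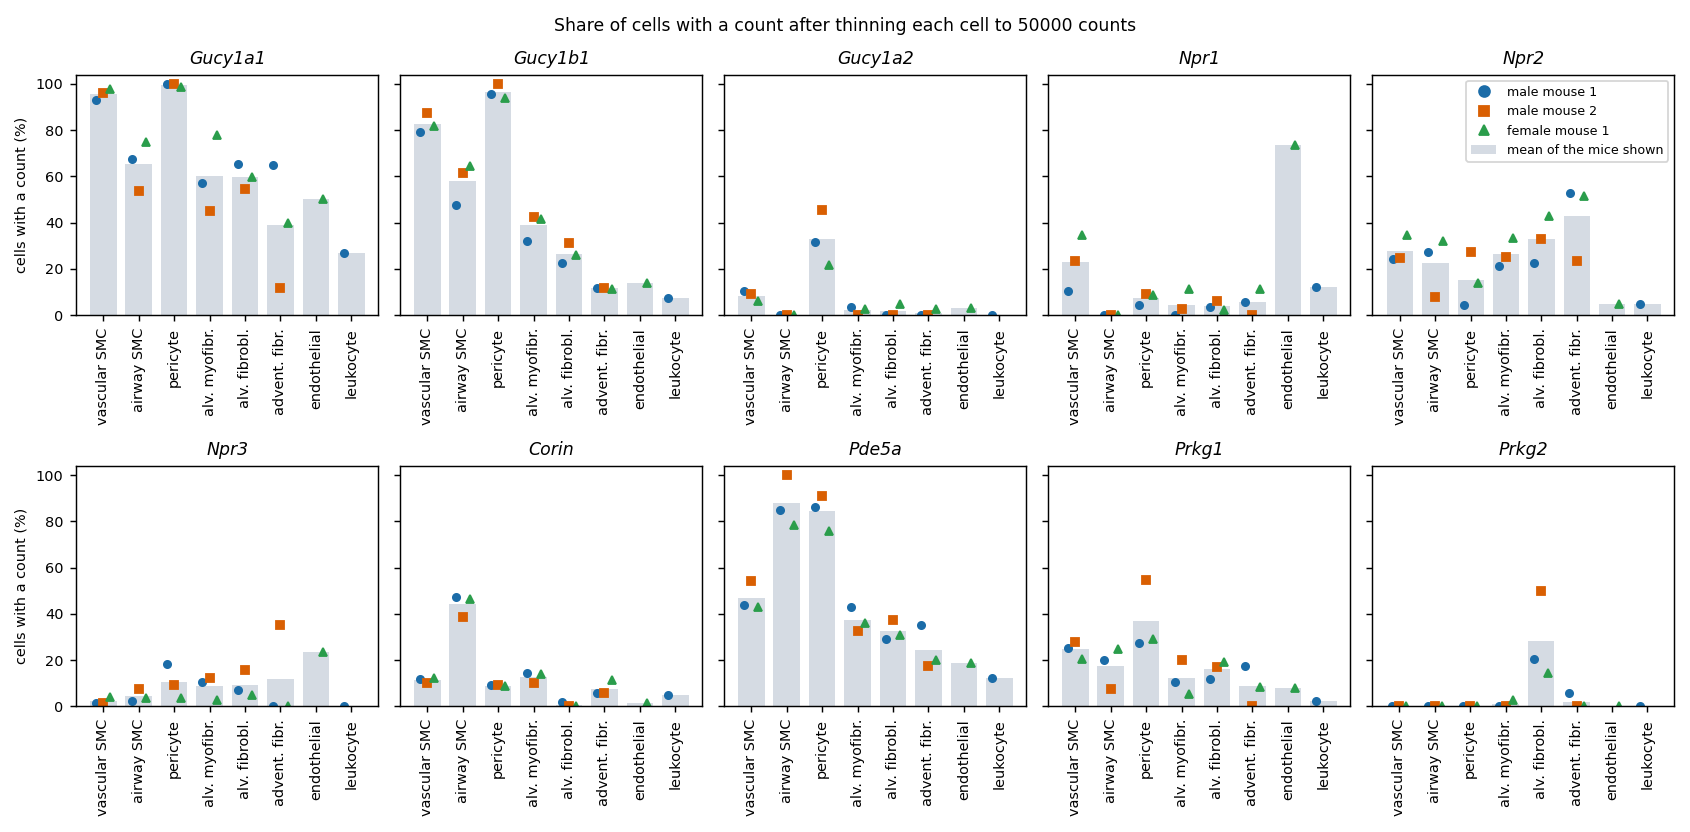
Share of cells with a count for each gene after every cell was thinned to 50000 counts, by class and mouse. Points are mice and bars the mean of the mice shown. Gucy1a1 was found in 92.9% to 97.96% of vascular SMC-like cells and in 98.7% to 100% of pericyte-like cells, while Corin was found in 38.5% to 47.5% of airway SMC-like cells.

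The natriuretic peptide receptors had other patterns. Npr1, the cyclase receptor for atrial and B-type peptides, stood at 19.8, 89.3 and 75.7 CPM in vascular SMC-like cells. In airway SMC-like cells it had 3 counts in all, among 23846610, so the ratio was 319.2-fold with a 95% counting interval of 109.1 to 1548. The fitted difference, airway minus vascular SMC-like cells, was called (log2 -9.16 ± 2.02, adjusted p 0.0313). It was lost without any one mouse (0.259, 0.259 and 0.258), without the mouse block (0.0533), at a finer clustering (0.0676), with a stricter cell filter (0.420) and with classes built on all variable genes (0.406). Pericyte-like cells held 1.62, 3.52 and 7.69 CPM and alveolar fibroblast-like cells 9.11, 16.9 and 2.95, below every vascular value but not called.

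Npr1 was highest in endothelial-like cells, at 430 CPM in the female mouse, with counts in 85.9% of cells. The summed endothelial markers were at 53.2 to 109.4 CPM in vascular SMC-like cells (5 of 5 markers with counts), 6.79 to 36.6 CPM in airway SMC-like cells and 10638 CPM in endothelial-like cells. The endothelial-like values of the female mouse were the reference for every mouse. Relative to them, vascular SMC-like Npr1 ran from 4.6% to 20.8% and the marker sum from 0.50% to 1.03%. Whether endothelial RNA contributed to the vascular Npr1 counts was not tested. An alternative added after the data were seen removed cells with many endothelial or leukocyte marker counts. The fitted Npr1 log2 difference, airway minus vascular SMC-like cells, was then -8.85 ± 2.22, beside -9.16 ± 2.02 in the main fit. Its adjusted p was 0.0639, beside 0.0313. Gm16048, on the opposite strand of an Npr1 exon, held counts equal to 18.6% of those of Npr1, and whether the counting used strand was not stated.

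Within the vascular SMC-like class, Npr1 was spread unevenly over its clusters. One cluster was led by Efhd1, and the other had P2rx1 among its leading genes. Npr1 was at 46.7, 136.7 and 161.3 CPM in the Efhd1 cluster and at 0.784, 15.997 and 11.3 CPM in the P2rx1 cluster, higher in the Efhd1 cluster in 3 of 3 mice. The difference was log2 4.22 ± 0.69 with an unadjusted edgeR p of 0.00149 and an adjusted p of 0.199. No gene passed in this comparison (0.0% of 6833 genes; 5.96% at an unadjusted p under 0.05), which was added after the data were seen. Without the female mouse 2 genes were called, and Npr1, at an adjusted p of 0.339, was not among them. Gucy1a1, by contrast, was at 607.97, 856.4 and 795.6 plain CPM in the P2rx1 cluster and at 792, 880 and 848 in the Efhd1 cluster.

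**Figure D3:**
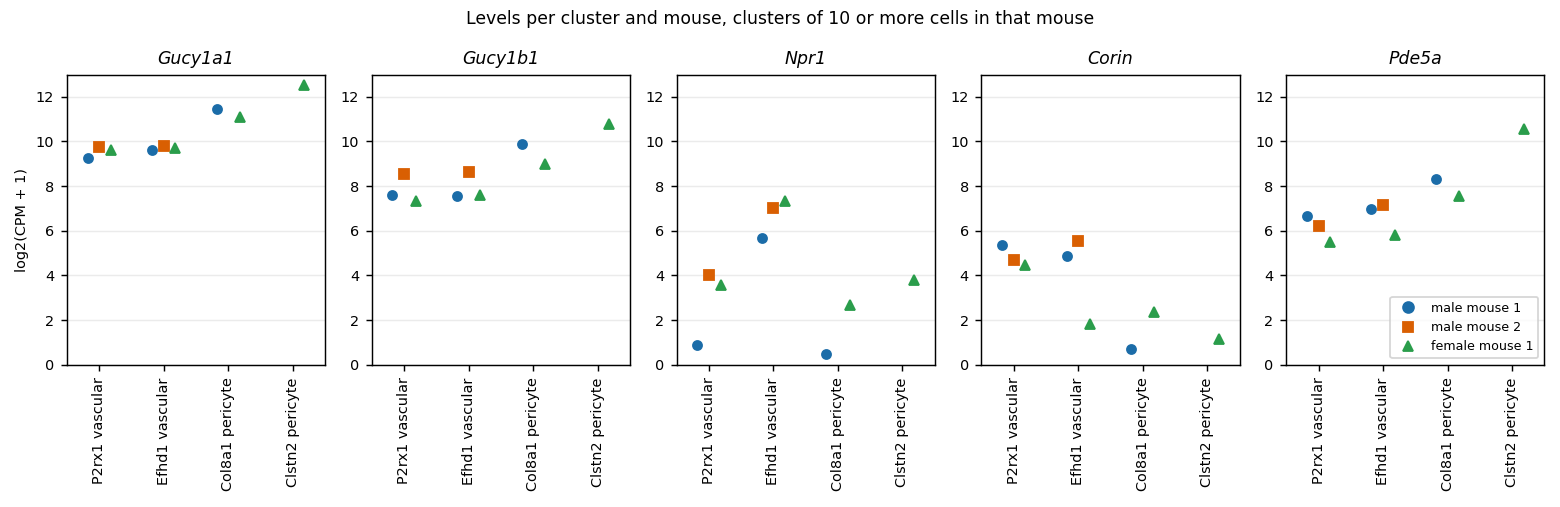
Levels of 5 genes in the vascular SMC-like and pericyte-like clusters, as log2(plain CPM + 1), with 1 point per mouse with at least 10 cells. Npr1 is higher in the Efhd1 than in the P2rx1 vascular cluster in each mouse, but this difference was not called. Gucy1a1, Gucy1b1 and Pde5a are higher in the Clstn2 pericyte-like cluster of the female mouse than in its Col8a1 cluster.

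Npr2, the cyclase receptor for C-type natriuretic peptide, was the most evenly spread of the receptors. It was at 54.9, 47.96 and 122.2 CPM in vascular SMC-like cells, 35.7, 45.8 and 53.8 in airway SMC-like cells and 94.99, 75.5 and 109.3 in alveolar myofibroblast-like cells. Alveolar fibroblast-like cells held 60.6, 97.7 and 88.4 CPM and adventitial fibroblast-like cells 150.98, 26.7 and 179.8. In the order of means, the ranges of neighbours among these classes overlapped, but the airway SMC-like range lay below both alveolar ranges. Pericyte-like cells were apart from all of them, at 23.8, 3.96 and 25.8 CPM. Their level was 5.82-fold below alveolar myofibroblast-like cells (log2 -2.54 ± 0.65, adjusted p 0.0407). This call was lost without any one mouse, without the mouse block (0.0986), with all low genes kept (0.0664), at a finer clustering (0.0526), with classes built on all variable genes (0.208) and when only these classes were fitted (0.372). Npr2 had a count in 27.3% to 36.4% of the pericyte-like cells of each mouse. In male mouse 1, however, 1 of the 22 pericyte-like cells held 97.2% of the Npr2 counts of that class.

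Npr3, the clearance receptor that takes up peptides and has no cyclase domain, was low throughout. Its highest class mean was in alveolar myofibroblast-like cells (24.1, 51.8 and 7.44 CPM), and vascular SMC-like cells had the lowest (2.29, 0.917 and 0.276 CPM). Adventitial fibroblast-like cells held 48.7 CPM in male mouse 2 and 0 and 0.0841 CPM in the others. Neighbouring classes overlapped throughout, and Npr3 was called in none of the 7 comparisons. Single cells held 56.7% to 96.97% of the myofibroblast-like counts. Endothelial-like cells held 51.1 CPM.

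Corin, the membrane protease that cleaves pro-atrial natriuretic peptide into its active form, was highest in airway SMC-like cells. It was at 320.3, 334.5 and 428.3 CPM there and at 33.9, 39.8 and 13.9 CPM in vascular SMC-like cells, with no overlap. The difference was 11-fold (log2 3.46 ± 0.69, adjusted p 0.0181, higher in 3 of 3 mice), and the call was lost without any one mouse (0.238, 0.149 and 0.175). Alveolar myofibroblast-like cells held 30.6, 54.1 and 108.2 CPM, overlapping the vascular range. Pericyte-like cells held 0.541, 0.439 and 3.37 CPM, 24.8-fold below vascular cells (log2 -4.63 ± 0.76, adjusted p 0.00446; 0.178 without male mouse 1, 0.114 without male mouse 2 and 0.290 when only these classes were fitted).

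Among the classes with enough cells in every mouse, Corin had its lowest mean in alveolar fibroblast-like cells. Adventitial fibroblast-like cells came next, at 0.396 to 0.825 CPM, and overlapped the pericyte-like range. The reference classes also had few Corin counts, with 2 among 12839454 in endothelial-like and 3 among 12580904 in leukocyte-like cells. Alveolar fibroblast-like cells held 0.176, 0.0609 and 0.335 CPM, which was 174.7-fold below vascular SMC-like cells (log2 -7.45 ± 0.86, adjusted p 0.000107) and 307.5-fold below alveolar myofibroblast-like cells (log2 8.26 ± 0.88 for myofibroblast-like minus fibroblast-like, adjusted p 9.79e-05). Pericyte-like cells were 272.2-fold below airway SMC-like cells (log2 -8.09 ± 0.86, adjusted p 9.03e-05). These 3 calls held without each mouse in turn. The difference between pericyte-like and alveolar myofibroblast-like cells was 43.6-fold (log2 -5.45 ± 0.77, adjusted p 0.000812; 0.0545 without male mouse 1 and 0.153 when only these classes were fitted).

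Even in its highest class Corin was not in every cell: 47.5%, 46.2% and 50% of airway SMC-like cells had a count, against 17.9%, 12.1% and 20.4% of vascular SMC-like and 3.12% of endothelial-like cells. One of the 13 airway SMC-like cells of male mouse 2 held 45.8% of that mouse's counts. Cardiac muscle is a textbook source of Corin, so heart markers are given beside it. The summed cardiomyocyte list (5 genes) in airway SMC-like cells was at 310, 813 and 41.9 CPM. Myh6 had no count in any of the 3 mice, and in male mouse 2 the sum came from 1 of the 5 genes. The Corin levels of the same cells ran from 320.3 to 428.3 CPM, and whether heart RNA contributed to them was not tested.

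Pde5a, which breaks down cyclic GMP and is the target of sildenafil, was high in both pericyte-like and airway SMC-like cells. It stood at 495.04, 1677 and 587.05 CPM in pericyte-like cells, at 349.9, 514.7 and 246.1 CPM in airway SMC-like cells and at 104.6, 123.2 and 49.7 CPM in vascular SMC-like cells. The first pair of ranges overlapped, and both lay above the vascular range. Pericyte-like cells exceeded vascular SMC-like cells 9.61-fold (log2 3.26 ± 0.66, adjusted p 0.0134; 0.0784 without male mouse 1 and 0.294 without male mouse 2). Airway SMC-like cells were higher than vascular ones in 3 of 3 mice, but the difference was not called (log2 2.03 ± 0.62, adjusted p 0.151); it was called with DESeq2 (0.0251) and when only these classes were fitted (0.0230).

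Alveolar myofibroblast-like cells held 68.3, 126.4 and 117.3 CPM of Pde5a, overlapping the vascular range. The pericyte-like level was 7.62-fold above them (log2 2.93 ± 0.65, adjusted p 0.0182; 0.109 without male mouse 1 and 0.296 without male mouse 2). Alveolar fibroblast-like cells held 30.6, 64.4 and 33.97 CPM. Per kilobase, the Pde5a level was 0.24 ± 0.03 of the Gucy1b1 level in pericyte-like cells and 0.15 ± 0.07 in vascular SMC-like cells (SD, n = 3). In airway SMC-like cells it was 0.95 ± 0.31, in alveolar fibroblast-like cells 0.86 ± 0.26 and in alveolar myofibroblast-like cells 0.76 ± 0.61, and in adventitial fibroblast-like cells it ran from 0.73 to 16.5. Every pericyte-like and vascular ratio lay below every airway ratio; these ratios were not tested.

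The kinase Prkg1, the form of protein kinase G found in smooth muscle, had overlapping ranges in the pericyte-like and both SMC-like classes and differed widely between mice. It was at 33.2, 106.8 and 66.96 CPM in pericyte-like cells, 56.3, 90.3 and 25.2 in vascular SMC-like cells and 39.4, 7.51 and 27.4 in airway SMC-like cells. All neighbouring classes overlapped down to alveolar fibroblast-like cells (19.1, 20.4 and 13.5 CPM). Prkg1 was called in none of the 7 comparisons, and the errors were wide: pericyte-like minus airway SMC-like cells was log2 1.52 ± 1.01 (edgeR adjusted p 0.466). Its counts were concentrated, with 1 cell holding 80% of the pericyte-like counts in male mouse 1.

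Prkg2, the kinase better known from intestine, kidney and growth plate, was found mainly in one class. Alveolar fibroblast-like cells held 33.8, 77.9 and 26.9 CPM, with counts in 25.9%, 53.1% and 16.7% of cells. Vascular SMC-like cells had 3 counts among 115362216 and alveolar myofibroblast-like cells had 1. The ratio of counts to vascular SMC-like cells was 1713-fold with a 95% counting interval of 585.5 to 8312. That to alveolar myofibroblast-like cells was 1147-fold with an interval of 205.6 to 45316. The fitted difference from vascular SMC-like cells was log2 10.5 ± 2.01 (adjusted p 0.00555). For myofibroblast-like minus fibroblast-like cells it was log2 -10.2 ± 2.08 (adjusted p 0.0175). Both calls were lost without any one mouse. Adventitial fibroblast-like cells held 6.14, 0.275 and 0.925 CPM, below every alveolar fibroblast-like value. In alveolar fibroblast-like cells the Prkg2 level per kilobase was 3.59, 7.71 and 4.04 times the Prkg1 level, whereas Prkg1 was the higher of the pair in both SMC-like classes.

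**Figure D4:**
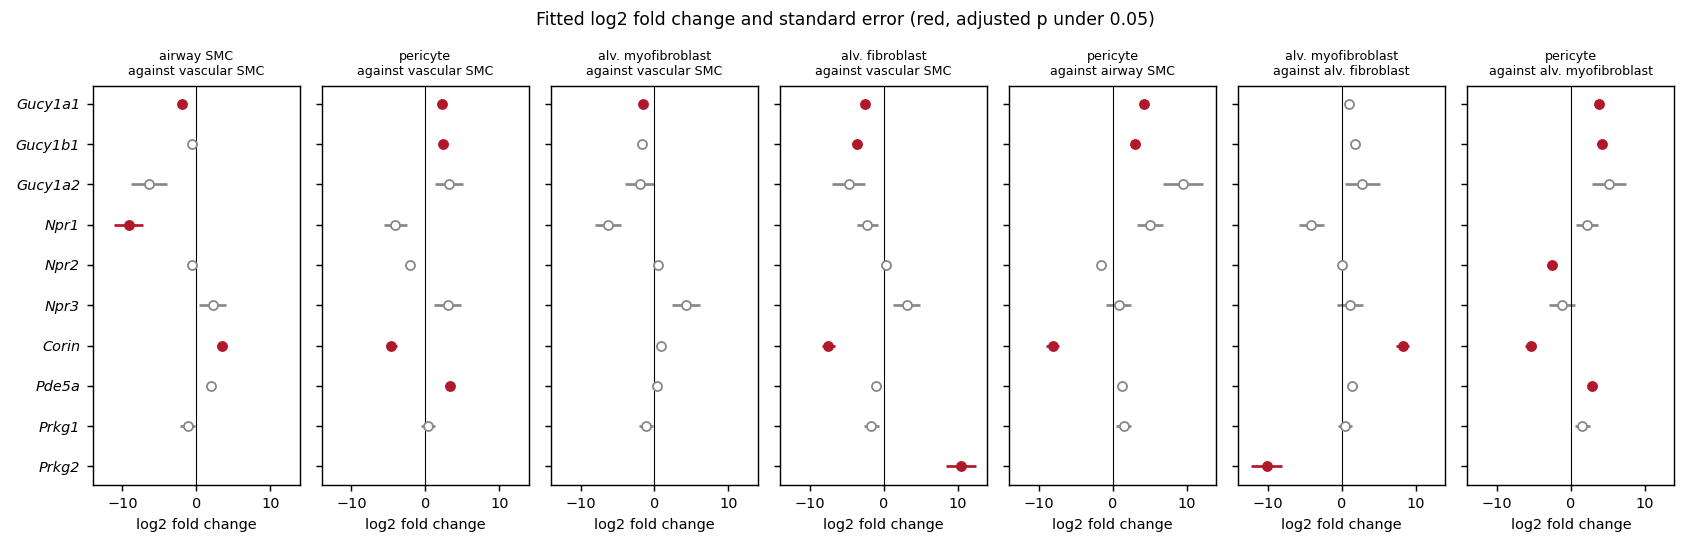
Fold changes of the 10 genes in the 7 class comparisons, as log2 values with their standard errors. Filled points were called at an adjusted p under 0.05. Gucy1a1 was called in 6 of the 7 comparisons and Corin in 6.

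Counted by comparison, 3 of the 10 genes were called between airway and vascular SMC-like cells, where 1.78% of all 16177 genes were, and 4 between pericyte-like and vascular SMC-like cells (3.05% of all genes). In alveolar myofibroblast-like against vascular SMC-like cells 1 was called (3.19%), and in alveolar fibroblast-like against vascular SMC-like cells 4 (5.34%). The count was 3 for pericyte-like against airway SMC-like cells (4.98%), 2 for alveolar myofibroblast-like against alveolar fibroblast-like cells (2.44%) and 5 for pericyte-like against alveolar myofibroblast-like cells (4.27%). The median log2 difference of the 10 genes between pericyte-like and vascular SMC-like cells was 1.76, beside -0.38 over all genes. Between airway and vascular SMC-like cells it was -0.60 beside -0.30. The genes were chosen with results of these data known, so these counts describe them and are no independent test.

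Over the 18 sums, log levels of Gucy1a1 and Gucy1b1 moved together (Pearson r 0.92), as did Gucy1a1 with Prkg1 (0.83) and Gucy1b1 with Pde5a (0.83). Npr2 ran against Pde5a (-0.77). The sums share mice and plates, so these values are descriptions. Of 10491 other genes, the nearest in pattern were Mir7010 (0.94), Trp53i11 (0.91) and Stom (0.91) for Gucy1a1, Klhl23 (0.93), Vasp (0.93) and Parm1 (0.90) for Gucy1b1, and Pcdh1 (0.92), Bcas1 (0.92) and Gm38287 (0.91) for Gucy1a2. Mir7010 lies over an exon of Gucy1a1 on the same strand, so reads of this pair cannot be told apart. Corin lay nearest to Ednrb (0.95), the endothelin B receptor, then Pdlim3 (0.95) and Kcnma1 (0.94), the pore subunit of the BK potassium channel. Pde5a lay nearest to Fermt2 (0.86), Klhl23 (0.84) and Cysltr1 (0.84), the leukotriene receptor.

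Among the receptors, the nearest genes were Slamf9 (0.90), Gabra3 (0.85) and Ccn3 (0.85) for Npr1, and Thbs3 (0.88), Fgfr1 (0.87) and Slc18b1 (0.87) for Npr2. For Npr3 no gene passed 0.74, the value for Pon2, followed by Yipf1 (0.74) and Gm26903 (0.73). Prkg1 was nearest to Ncor1 (0.87), Ppp2r5a (0.84) and Utrn (0.83). Prkg2 lay closest to Upk1b (0.98) and Aoc1 (0.96).

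The pericyte-like class held more than one cluster. In the female mouse, 30 cells led by 9230104L09Rik, Clstn2 and Adcy8 had Gucy1a1 at 5978, Gucy1b1 at 1738, Pde5a at 1518 and Prkg1 at 166.4 plain CPM. The 49 cells led by Col8a1 had 2167, 504.4, 187.5 and 24.1 for the same genes. All 4 were higher in the first cluster. The 16 Col8a1-led cells of male mouse 1 held 2848, 948, 318.7 and 44.6. Only the female mouse had at least 10 cells in both clusters, so the difference has no replicate. The pericyte-like share of cells was 3.37%, 3.13% and 21.3% in the 3 mice. A sort gate can change such a share, but this was not tested and cannot be told apart from plate, sex and animal.

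Within male mouse 1, whose cells lay on plates 045s and 046s, vascular SMC-like cells gave similar values on both: Gucy1a1 was at 646.5 and 722 plain CPM, Pde5a at 108.2 and 110.9, and Corin at 37.8 and 33.03. Npr1 differed more, at 26.6 and 14.3.

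The other genes of the pathway were read from a list of 50, of which 49 were in the table and 32 were tested. The list was chosen with results of these data known, so its counts describe it and are no independent test. Between airway and vascular SMC-like cells 2 were called (1.78% of all genes). Rgs2, a protein kinase G substrate that dampens G-protein signals, was at 2123, 2772 and 1281 CPM in airway SMC-like cells and at 516.4, 551.02 and 242.004 in vascular ones (log2 2.27 ± 0.32, adjusted p 0.00151). Pde3a, a phosphodiesterase that cyclic GMP inhibits, was at 1.999, 18.02 and 10.7 CPM against 230.01, 361.9 and 245.8 (log2 -5.14 ± 0.76, adjusted p 0.00228). Thus airway SMC-like cells had more Rgs2 and far less Pde3a than vascular ones, with no overlap in either gene.

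Pericyte-like cells resembled vascular ones in having Pde3a, at 532.8, 705.4 and 422.2 CPM. Against vascular SMC-like cells, 3 of the 32 list genes were called (3.05% of all genes), 1 higher and 2 lower. Nostrin, an adaptor of endothelial nitric oxide synthase, was at 161.2, 439.1 and 87.2 CPM against 1.62, 2.38 and 4.13 (log2 6.17 ± 1.29, adjusted p 0.0163). The myosin phosphatase subunits Ppp1r12a (log2 -2.63 ± 0.53, adjusted p 0.0132) and Ppp1r12b (log2 -2.25 ± 0.51, adjusted p 0.0271) were lower. Without male mouse 1 or male mouse 2, 0 of the 3 were called, and without the female mouse 1 was. Of 8 other alternatives, Ppp1r12b lost its call under 4 (adjusted p 0.0586 to 0.201), Ppp1r12a under 1 (0.0734) and Nostrin under 1 (0.0589).

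In alveolar myofibroblast-like against vascular SMC-like cells 3 of the 32 list genes were called (3.19% of all genes). Rgs2 was higher (2169, 2306 and 1192 CPM; log2 2.14 ± 0.32, adjusted p 0.00126), while Pde3a (log2 -3.96 ± 0.72, adjusted p 0.00582) and Kcnmb1, the beta subunit of the BK channel (log2 -6.77 ± 0.87, adjusted p 0.000382), were lower. In alveolar fibroblast-like against vascular SMC-like cells 8 were called (5.34% of all genes), 2 higher and 6 lower. The higher ones were Mme, the neprilysin that degrades natriuretic peptides (62.9, 206.2 and 30.2 CPM; log2 7.52 ± 1.43, adjusted p 0.00525), and Pde9a, a phosphodiesterase selective for cyclic GMP (202.1, 94.9 and 208.4 CPM; log2 4.35 ± 1.07, adjusted p 0.0278; 0.102 without the mouse block and 0.0617 at a finer clustering). The furthest below were Kcnmb1 (log2 -8.13), Mrvi1, the kinase's partner at the calcium store (log2 -4.53; adjusted p 0.0529 with a stricter cell filter), and Ppp1r12a (log2 -3.85). Prkg2 and Mme were thus both at their highest, among muscle and alveolar classes, in the alveolar fibroblast-like cells, and adventitial cells held Mme at 137.1, 413.1 and 27.5 CPM.

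Between pericyte-like and airway SMC-like cells 5 of the 32 list genes were called (4.98% of all genes). Pde3a was higher (log2 6.20 ± 0.80, adjusted p 0.000389) and Kcnma1, Pde1a, Rgs2 and Ppp1r12b were lower. Kcnma1 was at 94.3, 52.9 and 37.9 CPM in airway SMC-like cells and at 0, 0 and 0.481 in pericyte-like cells. Between alveolar myofibroblast-like and alveolar fibroblast-like cells 5 were called (2.44% of all genes), Kcnma1 and Rgs2 higher and Mme, Nostrin and Pde9a lower. Of 9 alternatives that kept all mice, Pde9a lost its call under 7 (adjusted p 0.0511 to 0.231), Mme under 5 (0.0530 to 0.103), Nostrin under 5 (0.0516 to 0.0881), Kcnma1 under 3 (0.0592 to 0.132) and Rgs2 under 1 (0.0684). Between pericyte-like and alveolar myofibroblast-like cells 7 were called (4.27% of all genes). Nostrin, Kcnmb1, Pde3a and Vasp were higher, and Kcnma1, Pde1a and Rgs2 lower. When only the classes compared were fitted, just Pde3a and Rgs2 stayed called between pericyte-like and airway SMC-like cells. Kcnma1 and Pde1a had adjusted p-values of 0.153 and 0.0728 there, and Ppp1r12b also lost its call. Against alveolar myofibroblast-like cells just Nostrin, Pde3a and Rgs2 stayed called in such a fit. Kcnma1, Kcnmb1 and Pde1a stood at 0.226, 0.141 and 0.123, and Vasp also lost its call. This Kcnma1 call was also lost with all low genes kept (0.0520) and at a finer clustering (0.0635). Leaving out 1 mouse lowered these counts: the 8 calls in alveolar fibroblast-like against vascular SMC-like cells became 3 to 4, the 5 in pericyte-like against airway SMC-like cells 2 to 3, the 5 in myofibroblast-like against fibroblast-like cells 0 to 1, and the last 7 became 2 to 5. Without male mouse 1, 1 list gene was called in each of airway SMC-like and alveolar myofibroblast-like against vascular SMC-like cells.

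The upstream makers of the signal were nearly absent from the muscle classes. Nos3, the endothelial nitric oxide synthase, was at 202.4 CPM in endothelial-like cells and at 0.635, 3.58 and 4.34 CPM in vascular SMC-like cells. Nppa, which encodes the substrate of Corin, was at 38.04 CPM in the adventitial fibroblast-like cells of male mouse 1 and at most 0.0601 CPM in every other class and mouse measured. Smart-Seq2 reads without molecular identifiers are not independent molecules, so the counting intervals above leave out the spread between mice and cells.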

How the data were processed

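Lung cells of 3 mice, 1376 in all, were grouped by mouse from the labels. Their authors deposited raw read counts per gene and cell, as whole numbers. Of tools and builds the submitters' processing notes list bcl2fastq, then Bowtie, Bowtie2, featureCounts, Subread, GRCm38 and mm10, with neither versions nor roles; strand and multi-mapping settings were not stated. Symbols for 46005 of 46517 gene identifiers came from the GENCODE annotation of GRCm38. Every column was used, and 0 cell names occurred more than once. A cell needed 1000 genes, 20000 counts and no more than 20% mitochondrial counts, which all cells passed. No doublet caller was run.

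Genes were divided at random into 2 sets. The 1000 most variable genes of each set gave one clustering (30 principal components, 15 neighbours, Leiden resolution 1), and its classes were used to read the genes of the other set. Of 1090 cells named in both clusterings, 95.8% had the same name. Clusters had been looked at before the naming rule was written. Sums of counts by class and mouse were tested with edgeR 4.0.16 under R 4.3.3 (filterByExpr, TMM, quasi-likelihood, mouse as block, since sums of one number come from the same animal). Standard errors were computed as |log2 fold change| over the root of the F statistic. The script was tested on simulated data. Python 3.11.15, leidenalg 0.10.2 and scikit-learn 1.9.0 were used.

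The genes named are the 10 members in every class, the 3 called pathway genes with the largest fold change in each direction of a comparison, and for each member the 3 genes with the highest correlation of log2(CPM + 1). Members, lists and comparisons were chosen with earlier results of these data known. No fold is given for Prkg2 where both classes had 3 counts or fewer. Pde2a was not analysed here. Alternatives were DESeq2 1.42.0, limma 3.58.1, other cell filters and clusterings, no block, no low-count filter, a fit of only the classes compared, and leaving out each mouse; removal of cells with many endothelial or leukocyte marker counts was added after seeing the data. A few genes and the unnamed clusters are not reported here.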

Additional observations from a re-analysis of the deposited data

How the results depend on the processing

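Directions of the tested differences of the 10 genes and the named pathway genes were the same under the alternatives except in 8 cases, none of them called, leaving aside Prkg2 in the 5 comparisons where both classes held 3 counts or fewer; in 4 of those it took both signs over the mice left out. These were Prkg1 between pericyte-like and vascular SMC-like cells (log2 -0.0065 at Leiden resolution 2), Pde5a between alveolar myofibroblast-like and vascular SMC-like cells (-0.30 to 0.78 over the mice left out, lowest without the female mouse), Npr2 between alveolar fibroblast-like and vascular SMC-like cells (-0.20 to 0.73 over the mice left out, lowest without male mouse 2, and -0.073 at resolution 2), Npr3 between pericyte-like and airway SMC-like cells (-0.39 with all variable genes), and, between alveolar myofibroblast-like and alveolar fibroblast-like cells, Gucy1a2 (-3.24 to 5.11, lowest without male mouse 1) and Npr2 (-0.11 to 0.48, lowest without male mouse 1, and -0.011 without the female mouse). The causes were not tested.

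Calls are given as a percent of the 16177 genes, for 7 comparisons in this order: 1, airway against vascular SMC-like; 2, pericyte-like against vascular; 3, myofibroblast-like against vascular; 4, alveolar fibroblast-like against vascular; 5, pericyte-like against airway; 6, myofibroblast-like against fibroblast-like; 7, pericyte-like against myofibroblast-like. With DESeq2 they were 5.98, 10.8, 8.65, 9.69, 15.3, 7.52 and 12.8, and the median log2 difference of all genes went from -0.30 to -0.08 in comparison 1, from -0.38 to -0.13 in comparison 2, from -0.23 to -0.07 in comparison 3 and from -0.13 to -0.03 in comparison 7. With limma on equal cell totals they were 3.73, 8.14, 5.64, 7.71, 9.79, 4.18 and 8.09. Classes from all variable genes gave 1.58, 3.16 and 2.58 in comparisons 2, 5 and 7, and the share of calls that were higher was 73.05% in comparison 2. A fit of only the classes compared gave 1.16, 1.03, 10.8, 0.933 and 0.977 in comparisons 1, 2, 4, 5 and 7, and the share of calls that were higher went from 43.002% to 65.7% in comparison 2 and from 41.7% to 56.3% in comparison 7. Leaving out each mouse, which leaves fewer samples in the fit, gave 0.365 to 0.748, 0.309 to 1.25, 0.612 to 1.25, 1.53 to 2.46, 1.22 to 2.03, 0.544 to 0.958 and 1.03 to 2.43.

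Without the replicate block, the percent called was 1.03, 1.74 and 1.58 in comparisons 1, 2 and 6. Among the 10 genes, Npr1 was then no longer called in comparison 1 (adjusted p 0.0533), Gucy1b1 in comparison 2 (0.141) and Npr2 in comparison 7 (0.0986), Gucy1a2 was called in comparison 5 (0.0495), and no other call of theirs changed.

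Of the 10 genes, DESeq2 called 5, 3, 5 and 4 in comparisons 1, 3, 5 and 6. In comparison 3 limma and Leiden resolution 2 each called 2 and the stricter cell filter 0; limma called 5 in comparison 5; and the fit of only the classes compared called 3 in comparison 7. Without each mouse the counts were 0 to 1, 0 to 3, 0, 2 to 3, 2 to 3, 1 and 2 to 3. The stricter filter left too few pericyte-like cells for 3 of the 7 comparisons. The planned removal of cells with 2 or more markers of another class was not run, since 1126 cells met it. Of 60 class levels, 57 moved by less than 1 SD with the mean of CPM per cell and 60 with plain CPM. Shares of cells moved in 34 of 60 cases when thinned and in 41 when 5 counts were required, so shares depend on depth. Of the pathway list, DESeq2 called 7, 13 and 10 genes in comparisons 3, 4 and 5, and limma 5, 5, 8 and 10 in comparisons 1, 2, 3 and 5. In comparison 6, Leiden resolution 2 and classes from all variable genes each called 1 list gene, and no low-count filter called 3. The stricter cell filter called 2 there, of which only Rgs2 was among the 5 of the main fit. In comparison 2 classes from all variable genes called 1, and in comparison 3 the stricter cell filter called 5. In comparisons 2, 5, 6 and 7 the fit of only the classes compared called 1, 2, 2 and 3, with only Rgs2 of the 5 in comparison 6.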
